A study of Mus musculus with 6 samples.

Results

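Laminins and the other core basement membrane genes were examined in 3 mouse embryonic stem cell lines, ♂M-1, ♂M-3 and ZM-1. The 10 genes were chosen by name, with earlier results of these data known. They include the laminin chains Lama1, Lama5, Lamb1 and Lamc1, and the type IV collagen chains Col4a1 and Col4a2. The others are the nidogens Nid1 and Nid2, the perlecan gene Hspg2, and Sparc. All 10 had a probe set with a single gene symbol, of 19938 genes measured in all, and each had exactly 1 such probe set. By their labels the lines are chromosome transfer embryonic stem cells; what the prefixes ♂M and ZM stand for is not spelled out. The study concerned how well the parental pronuclei of the mouse zygote reprogram introduced chromosomes. Each line was measured on 2 arrays described as biological repeats, giving 6 arrays. All 3 groups had been kept on gelatin in medium with LIF, with PD0325901 to block MEK and with CHIR99021 to block GSK3β, so no group lacked these agents. Each group is a single line, so a difference between ♂M and ZM cells in general and one between individual lines cannot be told apart.

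A basement membrane is a thin sheet of extracellular matrix under epithelia. Laminin, a cross-shaped trimer of an alpha, a beta and a gamma chain, assembles at the cell surface into a first network, and type IV collagen forms a second one. Nidogens and the heparan sulfate proteoglycan perlecan tie the networks together. In the early mouse embryo, laminin is among the first matrix proteins made, and the primitive endoderm lays down the membrane against which the epiblast becomes an epithelium.

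Promoters are shown for the type IV collagen pair, whose genes start side by side and were both lower in ♂M-3, and for Lamb1, whose lower level there held under all alternatives. Windows of 250 bases before to 50 bases after the start of the gene were found in RefSeq (GRCm38.p6) for 7 of the 10 genes; Lama1, Lamc1 and Nid2 are named only. Col4a1 (chr8:11312777-11313076, minus strand) and Col4a2 (chr8:11312555-11312854, plus strand) lie head to head, with start sites 21 bases apart. By these positions, 11312826 for Col4a1 and 11312805 for Col4a2, each start lies just inside the other gene, so the genes overlap there. Their windows share 78 bases (chr8:11312777-11312854), which are in capitals in both lines and are the reverse complement of each other. In the Lamb1 window (chr12:31265043-31265342, plus strand), capitals mark 2 GC boxes and 1 CCAAT box.
Col4a1: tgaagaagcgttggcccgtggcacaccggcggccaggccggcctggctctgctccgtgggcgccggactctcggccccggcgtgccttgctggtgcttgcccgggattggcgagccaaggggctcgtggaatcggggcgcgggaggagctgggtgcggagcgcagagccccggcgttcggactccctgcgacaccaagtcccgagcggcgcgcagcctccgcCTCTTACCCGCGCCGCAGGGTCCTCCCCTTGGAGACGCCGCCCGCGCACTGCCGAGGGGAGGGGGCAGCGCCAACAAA
Col4a2: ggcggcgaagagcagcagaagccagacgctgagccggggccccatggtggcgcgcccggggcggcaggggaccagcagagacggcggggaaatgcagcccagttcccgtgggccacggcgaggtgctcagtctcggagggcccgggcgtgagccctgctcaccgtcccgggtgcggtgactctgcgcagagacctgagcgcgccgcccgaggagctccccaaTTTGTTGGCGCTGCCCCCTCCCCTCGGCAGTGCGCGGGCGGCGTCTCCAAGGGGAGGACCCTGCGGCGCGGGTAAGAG
Lamb1: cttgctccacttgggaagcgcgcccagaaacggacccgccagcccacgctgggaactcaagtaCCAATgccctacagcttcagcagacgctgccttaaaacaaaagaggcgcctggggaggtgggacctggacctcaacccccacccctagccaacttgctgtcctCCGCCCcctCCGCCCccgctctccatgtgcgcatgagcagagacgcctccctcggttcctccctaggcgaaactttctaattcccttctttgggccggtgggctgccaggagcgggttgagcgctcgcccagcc
The motifs searched on both strands were GGGCGG (the GC box bound by Sp1 factors), CCAAT (the box bound by NF-Y) and TATAAA (the TATA box), which do not overlap one another in the Lamb1 window. The shared collagen stretch held 1 GC box and no CCAAT or TATA box, and the whole Col4a1 and Col4a2 windows each held 1 CCAAT box. GC boxes were present in 35.7% of all 32851 windows of this length, CCAAT boxes in 37.4% and TATA boxes in 13.6%. The Sparc window held none of these motifs, and the Hspg2 and Lama5 windows held 5 and 4 GC boxes.

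Values are intensities on a linear scale, 1 probe set per gene, and a probe set is compared with itself across lines. Lines were compared by limma's moderated test on log2 of the intensity plus 1, with p-values adjusted by the Benjamini-Hochberg method over all 19938 genes and a threshold of 0.05. Median intensity over all probe sets was between 67.2 and 71.3 in the 6 arrays. Pou5f1, a defining transcription factor of embryonic stem cells, passed in no comparison and averaged 3711 ± 39.1 in ♂M-1 cells, 3614 ± 75.0 in ♂M-3 cells and 3875 ± 4.67 in ZM-1 cells (SD, n = 2 each). With no background signal used here, whether a marker was detected could not be judged.

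Lama1, Lama5, Lamb1, Col4a1 and Col4a2 passed the test in both comparisons that involve ♂M-3, which share the ♂M-3 arrays. How many of all genes passed in both was not counted. Against ZM-1, 7 of the 10 genes passed the test in ♂M-3, where 15.9% of all genes passed: 2 were higher (8.66% of all genes were) and 5 lower (7.2%). Lama1 and Hspg2 were higher, and Lama5, Lamb1, Col4a1, Col4a2 and Sparc lower. In ♂M-1 against ZM-1, 0 of the 10 passed in the limma test, where 4.41% of all genes passed (1.89% higher, 2.53% lower); 4 had an unadjusted p below 0.05. Of the 10, 7 passed in ♂M-1 against ♂M-3, where 6.54% of all genes passed: 4 were higher in ♂M-1 (3.22% of all genes) and 3 lower (3.32%). The comparisons share arrays, so their counts are not independent. The 10 genes and the other gene lists were chosen with earlier results of these data known, so their shares are descriptions only. All 10 genes lay above the median of all genes in mean intensity, and the shares over all genes include those of low signal. Among genes above the 50th percentile alone, 3391 passed in ♂M-3 against ZM-1, 1303 in ♂M-1 against ZM-1 and 1803 in ♂M-1 against ♂M-3. In that fit 7, 2 and 8 of the 10 passed. Over all 19938 genes, 3162, 880 and 1303 passed in the same order, so the upper 50% of genes gave more calls from fewer genes. The shares among these genes are thus larger than those over all genes. That fit also had its own variance prior and p-value adjustment, and the part of intensity in the larger shares was not tested. Fibroblast markers moved with the lower genes: 11 of 16 were lower in ♂M-3 than in ZM-1, and their part in these results was not tested. In arrays of whole cultures, fewer cells of a type and less RNA per cell cannot be told apart. The median log2 difference of the 10 genes was 0.042 in ♂M-1 against ZM-1 (−0.0082 over all genes), −0.095 in ♂M-3 against ZM-1 (0.0021 over all genes) and 0.14 in ♂M-1 against ♂M-3 (−0.017 over all genes). With 1 array left out, the count of 7 fell to between 2 and 5 in ♂M-3 against ZM-1 and to between 2 and 6 in ♂M-1 against ♂M-3. The count in ♂M-3 against ZM-1 was 3 without ♂M-3 replicate 1, 2 without ♂M-3 replicate 2, 3 without ZM-1 replicate 1 and 2 without ZM-1 replicate 2. The count in ♂M-1 against ♂M-3 was 4 without ♂M-1 replicate 1, and 2 without ♂M-1 replicate 2 or either ♂M-3 array. Lama1 and Lamb1 stayed past the threshold in both comparisons with each of the 6 arrays left out.

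**Figure D1:**
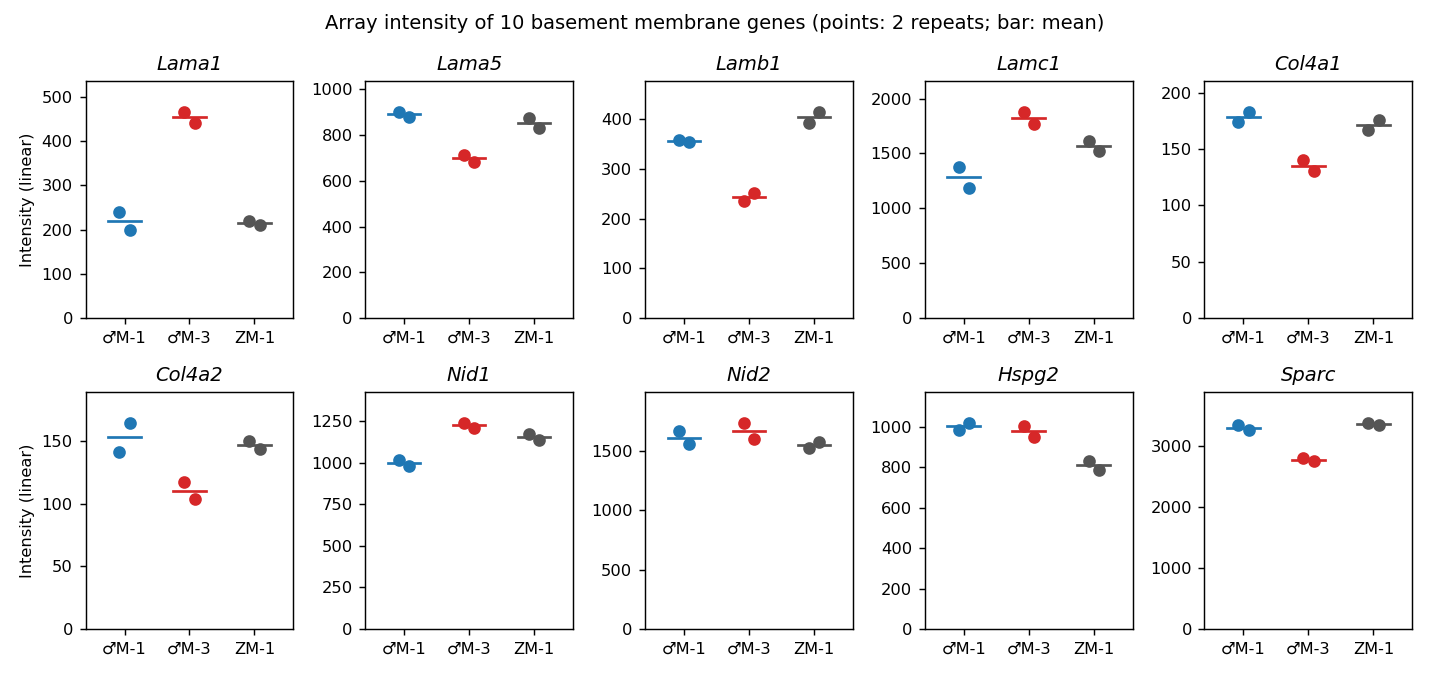
Linear intensity (y axis, from 0) of each of the 10 genes in the 2 arrays of ♂M-1, ♂M-3 and ZM-1 (x axis), with a bar at the line mean. The ♂M-3 arrays stand above the others for Lama1, Lamc1 and Nid1 and below them for Lama5, Lamb1, Col4a1, Col4a2 and Sparc.

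Lama1 encodes an alpha chain found in laminin of the early embryo. It measured 241 and 199 on the arrays of ♂M-1, 466 and 442 on those of ♂M-3, and 219.6 and 209.5 on those of ZM-1. Both ♂M-3 arrays lay above the 4 others, while the ♂M-1 and ZM-1 arrays overlapped. Lama1 was 2.11-fold higher in ♂M-3 than in ZM-1 (log2 difference 1.08, SE 0.099, adjusted p = 2.00e-04) and 2.07-fold lower in ♂M-1 than in ♂M-3 (log2 difference −1.05, adjusted p = 5.70e-04). ♂M-1 minus ZM-1 was 0.029, with a 95% interval from −0.19 to 0.25 on the log2 scale.

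Lama5 encodes the second alpha chain among the 10, which is found in most adult basement membranes. It measured 899.6 and 878 in ♂M-1, 713 and 681 in ♂M-3, and 874 and 831 in ZM-1, so the ♂M-3 arrays were the lowest. It was 1.22-fold lower in ♂M-3 than in ZM-1 (adjusted p = 0.0321) and 1.27-fold higher in ♂M-1 than in ♂M-3 (adjusted p = 0.0278). The first of these calls was lost with any 1 of the 6 arrays left out (log2 difference between −0.33 and −0.25). It was also lost after median centring (adjusted p = 0.0678). For that call, a fit of the 2 lines alone (adjusted p = 0.0504) gave the same result as leaving out either ♂M-1 array. The second was lost without either ♂M-1 or either ♂M-3 array (adjusted p between 0.107 and 0.184). The alpha chains thus differed in opposite directions in ♂M-3: the log2 ratio of Lama1 over Lama5 within an array differed from its ZM-1 mean by 0.087 and −0.15 in ♂M-1 arrays but by 1.37 and 1.36 in ♂M-3 arrays. This ratio measures unequal change only, since probe sets of different genes cannot be compared in level.

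Lamb1, the beta chain that pairs with both of these alpha chains, was lowest in ♂M-3. It measured 358 and 354 in ♂M-1, 236 and 250.4 in ♂M-3, and 393 and 414 in ZM-1, and the arrays of the 3 lines did not overlap. Lamb1 was 1.66-fold lower in ♂M-3 than in ZM-1 (log2 difference −0.73, SE 0.076, adjusted p = 4.27e-04) and 1.46-fold higher in ♂M-1 than in ♂M-3 (log2 difference 0.55, adjusted p = 0.00395). The difference of ♂M-1 from ZM-1, −0.18, did not pass (adjusted p = 0.235).

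Lamc1, the gamma chain shared by most laminins, was ordered ♂M-3, ZM-1, ♂M-1 from high to low. It measured 1376 and 1189 in ♂M-1, 1878 and 1767 in ♂M-3, and 1611 and 1520 in ZM-1, with no overlap between lines. The extremes differed by the test: Lamc1 was 1.42-fold lower in ♂M-1 than in ♂M-3 (log2 difference −0.51, adjusted p = 0.0126), not past the threshold when ♂M-1 replicate 2 (adjusted p = 0.115), ♂M-3 replicate 1 (0.0993) or ♂M-3 replicate 2 (0.0583) was left out. Neither difference from ZM-1 passed, at −0.29 in ♂M-1 (95% interval −0.50 to −0.083) and 0.22 in ♂M-3 (0.012 to 0.43). The log2 ratio of Lama1 over Lamb1 lay 0.34 and 0.079 above its ZM-1 mean for ♂M-1 and 1.89 and 1.72 above it for ♂M-3. The ratio of Lamc1 over Lamb1 differed from its ZM-1 mean by −0.013 and −0.21 in ♂M-1 and by 1.03 and 0.86 in ♂M-3. These ratios were not tested.

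**Figure D2:**
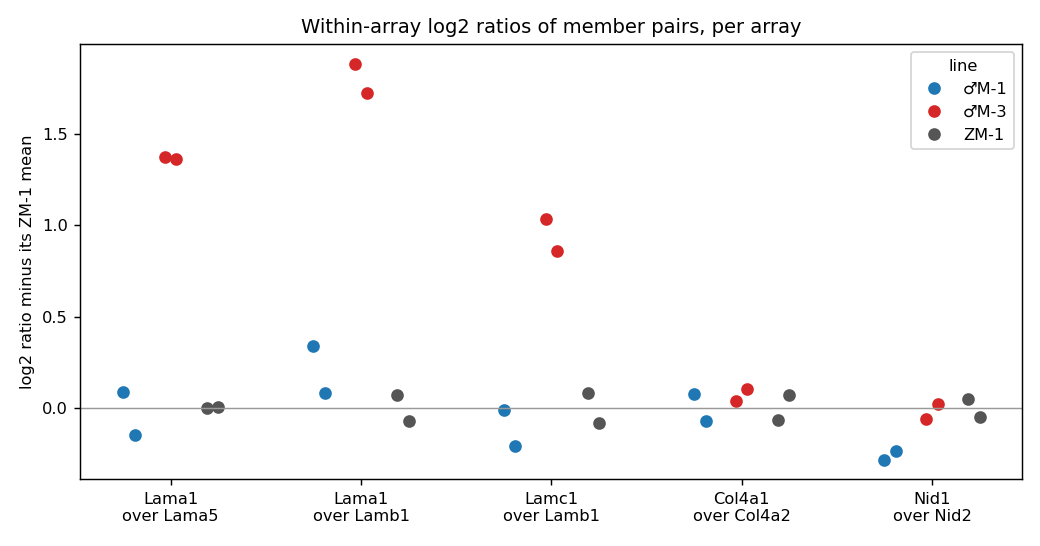
Log2 ratio of 5 pairs of genes within each array, minus the mean of that ratio in the ZM-1 arrays (y axis), with 1 point per array coloured by line. The ♂M-3 points stand between 0.86 and 1.89 for the 3 laminin pairs and between 0.035 and 0.10 for Col4a1 over Col4a2.

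Col4a1 and Col4a2 encode the chains of the commonest type IV collagen, in which a pair of the first chain joins the second. Col4a1 measured 174 and 183 in ♂M-1, 140.1 and 130.2 in ♂M-3, and 167 and 176 in ZM-1. Col4a2 measured 142 and 165 in ♂M-1, 117 and 104 in ♂M-3, and 150.2 and 144 in ZM-1. For both chains the ♂M-3 arrays were the lowest, and the ♂M-1 and ZM-1 arrays overlapped. In ♂M-3 against ZM-1, Col4a1 was 1.27-fold lower (log2 difference −0.34, SE 0.079, adjusted p = 0.0202) and Col4a2 was 1.33-fold lower (−0.41, SE 0.098, adjusted p = 0.0225). Set against ♂M-3, in ♂M-1 Col4a1 was 1.32-fold higher (adjusted p = 0.0196) and Col4a2 1.38-fold higher (adjusted p = 0.0243).

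These collagen calls were lost in part of the fits with 1 array left out, while the log2 differences kept their sign. Against ZM-1 in ♂M-3, Col4a1 ran from −0.39 to −0.29 in these fits and Col4a2 from −0.50 to −0.32. For ♂M-1 against ♂M-3 the ranges were 0.35 to 0.45 and 0.36 to 0.58. A line left with 1 array adds nothing to the estimate of the spread, so such fits have less power. Against ZM-1, Col4a1 was not past the threshold without ♂M-3 replicate 1 (adjusted p = 0.0573), ♂M-3 replicate 2 (0.142) or ZM-1 replicate 2 (0.0843), and Col4a2 without ♂M-3 replicate 2 (0.154), ZM-1 replicate 1 (0.0747) or ZM-1 replicate 2 (0.0528). For ♂M-1 against ♂M-3, Col4a1 was lost without either array of either line (0.0645 to 0.153), and Col4a2 without ♂M-1 replicate 2 (0.195), ♂M-3 replicate 1 (0.0560) or ♂M-3 replicate 2 (0.176). The log2 ratio of Col4a1 over Col4a2 lay between −0.073 and 0.10 from its ZM-1 mean in all 6 arrays. Col4a2 was the 90th closest of 19937 genes to Col4a1 by the root mean square difference of centred log2 values over the 6 arrays (0.070; Pearson r = 0.96, a description over arrays that share lines). This is the pair with head-to-head start sites.

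Nid1, a nidogen that binds the laminin gamma chain, measured 1018 and 980.3 in ♂M-1, 1239 and 1209 in ♂M-3, and 1170.4 and 1134 in ZM-1, with no overlap between lines. It was 1.23-fold lower in ♂M-1 than in ♂M-3 (adjusted p = 0.0498). That call was lost with any 1 of the 6 arrays left out (log2 difference between −0.32 and −0.27). It was also lost after quantile normalization (adjusted p = 0.0660). A fit of the 2 lines alone (adjusted p = 0.0506) gave the same result as leaving out either ZM-1 array. The differences of Nid1 from ZM-1 did not pass, at −0.21 in ♂M-1 (adjusted p = 0.164) and 0.088 in ♂M-3 (adjusted p = 0.479). Nid2, the second nidogen, measured 1666 and 1554 in ♂M-1, 1737 and 1599.8 in ♂M-3, and 1521 and 1577 in ZM-1, and passed in no comparison. The 95% intervals of its log2 differences ran from −0.13 to 0.24 in ♂M-1 against ZM-1, from −0.078 to 0.29 in ♂M-3 against ZM-1 and from −0.23 to 0.13 in ♂M-1 against ♂M-3.

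Hspg2, which encodes the perlecan core protein, had fitted differences from ZM-1 above 0 in both ♂M lines. Lamb1 had both below 0, at −0.18 in ♂M-1 and −0.73 in ♂M-3, also without overlap of the arrays with ZM-1. Hspg2 measured 985 and 1021 in ♂M-1, 1006 and 953 in ♂M-3, and 833 and 785 in ZM-1. The 4 ♂M arrays thus lay above both ZM-1 arrays. It was 1.21-fold higher in ♂M-3 than in ZM-1 (log2 difference 0.27, adjusted p = 0.0427). That call was lost with any 1 of the 6 arrays left out (log2 difference between 0.23 and 0.32). It was also lost after quantile normalization (adjusted p = 0.113). A fit of the 2 lines alone (adjusted p = 0.0628) gave the same result as leaving out either ♂M-1 array. In ♂M-1 against ZM-1 the log2 difference was 0.31 and did not pass (adjusted p = 0.0609), and between ♂M-1 and ♂M-3 the interval ran from −0.14 to 0.21.

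Sparc encodes a secreted calcium-binding protein that binds collagen and is abundant in parietal endoderm. It measured 3333 and 3252 in ♂M-1, 2804 and 2744 in ♂M-3, and 3378 and 3347 in ZM-1, so the ♂M-3 arrays were the lowest. It was 1.21-fold lower in ♂M-3 than in ZM-1 (log2 difference −0.28, adjusted p = 0.0321). It no longer passed without ♂M-3 replicate 1 (adjusted p = 0.117), ♂M-3 replicate 2 (0.164), ZM-1 replicate 1 (0.0875) or ZM-1 replicate 2 (0.0847), and after median centring (0.0740). In ♂M-1 against ♂M-3 the log2 difference of 0.25 did not pass (adjusted p = 0.0857).

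**Figure D3:**
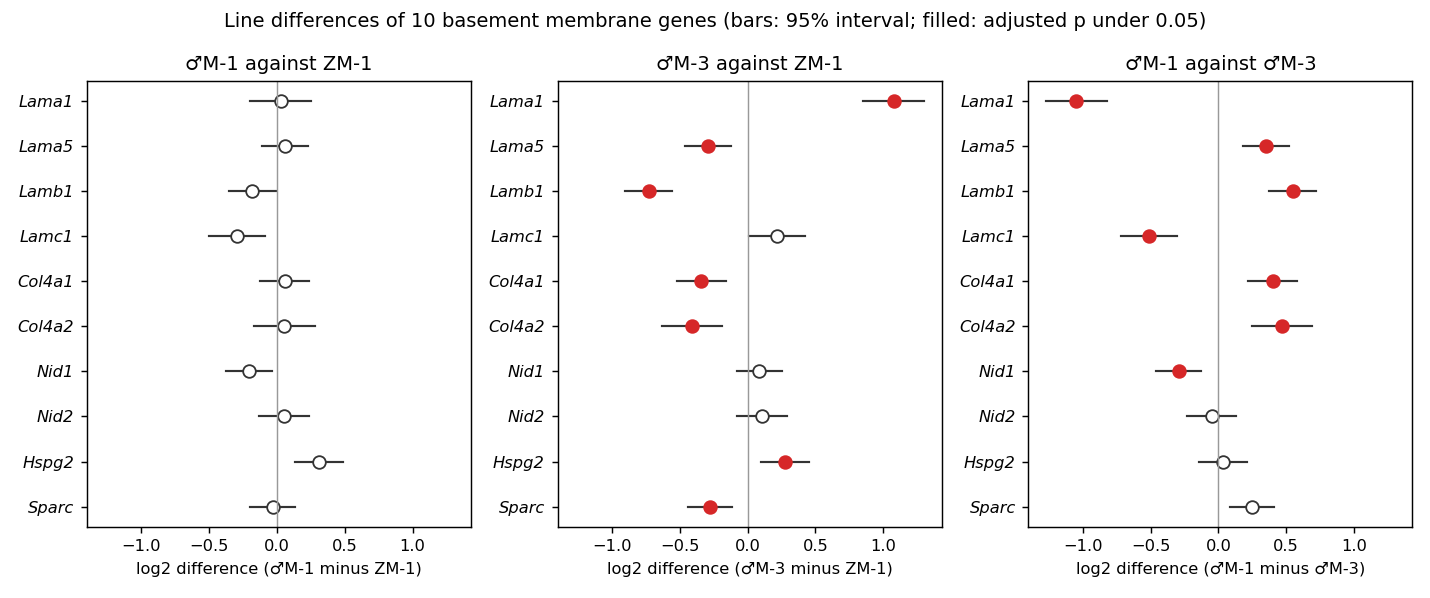
Log2 difference of each of the 10 genes (rows) in the 3 comparisons (panels), with 95% intervals from limma's moderated variance; filled points passed an adjusted p of 0.05. No gene is filled in ♂M-1 against ZM-1, and 7 are filled in each of the other panels.

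By the arrays alone, ♂M-3 and ZM-1 did not overlap for 10 of the 10 genes (57.5% of all genes), 5 higher (30.1% of all genes) and 5 lower (27.4%). For ♂M-1 and ZM-1 this held for 6 genes (48.9% of all genes), 2 higher (23%) and 4 lower (25.9%). For ♂M-1 and ♂M-3 it held for 8 genes (50.5% of all genes), 5 higher in ♂M-1 (21.6%) and 3 lower (28.9%). The count in ♂M-1 against ZM-1 is near the share over all genes.

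The counts of the other gene groups are to be read against the shares over all genes, 4.41% in ♂M-1 against ZM-1, 15.9% in ♂M-3 against ZM-1 and 6.54% in ♂M-1 against ♂M-3. Of the 6 other laminin chains measured, 2 were lower and 0 higher in ♂M-3 than in ZM-1. Lama3, an alpha chain of epithelial laminins, averaged 96.8 ± 0.323 in ♂M-3 and 206 ± 1.17 in ZM-1 (SD, n = 2 each), 2.11-fold lower (adjusted p = 4.41e-05). Lama4, an alpha chain of vascular and mesenchymal laminins, was 1.59-fold lower (adjusted p = 0.00217). In ♂M-1, Lama3 alone of the 6 differed from ZM-1, 1.53-fold lower at 134 ± 3.26 (adjusted p = 0.00220). Against ♂M-3, Lama3 and Lama4 were higher in ♂M-1 (log2 differences 0.47 and 0.51), with Lama3 lost without ♂M-1 replicate 2 or either ♂M-3 array (adjusted p up to 0.0685) and Lama4 without any of the 4 arrays (up to 0.116). None of the 4 other type IV collagen chains, Col4a3 to Col4a6, passed in any comparison by limma. Of them, 1 had an unadjusted p below 0.05 in ♂M-1 against ZM-1 and 0 in the others. Col4a3, Col4a4, Col4a5 and Col4a6 averaged 53.8, 54.4, 61.3 and 39.0 over the 6 arrays. With 0 of the 4 above the median of all genes, a change at this low signal could go unseen.

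Of 15 other basement membrane proteins, 2 were higher and 3 lower in ♂M-3 than in ZM-1. The heparan sulfate proteoglycan agrin (Agrn) was 1.44-fold higher at 811 ± 7.26 in ♂M-3 against 564 ± 35.8 in ZM-1 (adjusted p = 0.00277), and fibulin Fbln1 was 1.63-fold higher at 954 ± 40.0 in ♂M-3 against 585 ± 11.5 in ZM-1 (adjusted p = 0.00122). Its relative Fbln2 was 1.55-fold lower at 417 ± 2.41 in ♂M-3 against 648 ± 62.7 in ZM-1 (adjusted p = 0.00235). Frem2, a Fraser syndrome protein of embryonic basement membranes, was 1.39-fold lower, with adjusted p = 0.0662 when ♂M-3 replicate 2 was left out. The third lower gene, Pxdn, encodes the peroxidase that crosslinks type IV collagen. None (0) of the 15 passed by limma in ♂M-1 against ZM-1, with 2 at an unadjusted p below 0.05. Compared with ♂M-3, 4 were higher in ♂M-1, among them Fbln2, Frem2 and Pxdn (log2 differences 0.75, 0.45 and 0.44), and 2 lower, Agrn and Fbln1 (−0.37 and −0.40). Of Fbln2, Frem2, Pxdn and Fbln1, only Fbln2 passed with each array left out. Frem2 and Fbln1 each lost their call without 3 of the 6 arrays (adjusted p up to 0.144 and 0.215), and Pxdn without 4 (up to 0.118). The count of 6 ranged from 1 to 6 with 1 array left out.

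Among 14 receptors for laminin and collagen, 1 was higher and 4 lower in ♂M-3 than in ZM-1. Bcam, an immunoglobulin-family receptor for the alpha chain encoded by Lama5, was 1.42-fold higher at 602 ± 41.7 in ♂M-3 against 422 ± 8.49 in ZM-1 (adjusted p = 0.00446). The heparan sulfate syndecans Sdc3 and Sdc4 were 1.61-fold and 1.59-fold lower (adjusted p = 0.00104 and 7.06e-04). Integrin Itgb4, the beta subunit of hemidesmosomes, was 1.25-fold lower, no longer past when any 1 of the 4 arrays of these lines was left out (adjusted p up to 0.209). The main laminin receptor subunits did not pass against ZM-1 in ♂M-3: Itga6 averaged 674 ± 7.66 in ♂M-3 and 686 ± 23.9 in ZM-1 (adjusted p = 0.890), Itgb1 596 ± 13.1 in ♂M-3 and 689 ± 30.7 in ZM-1 (0.0977), and dystroglycan Dag1 1234 ± 52.7 in ♂M-3 and 1181 ± 54.5 in ZM-1 (0.687). Of the 14, 0 passed by limma in ♂M-1 against ZM-1, with 3 at an unadjusted p below 0.05. Compared with ♂M-3, 4 were higher in ♂M-1 and 1 lower. Itga1, a collagen-binding integrin subunit, had the largest log2 difference of the named receptors there, 0.79 (adjusted p = 0.00625; 0.0560 without ♂M-3 replicate 2), and Sdc3, Sdc4, Itgb1 and Bcam had 0.54, 0.44, 0.35 and −0.43. The calls of Sdc4 and Bcam were lost without ♂M-1 replicate 2 or either ♂M-3 array (adjusted p up to 0.109 and 0.153), and that of Sdc3 without ♂M-1 replicate 2 or ♂M-3 replicate 2 (up to 0.0722). The count of 5 ranged from 0 to 5 with 1 array left out.

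Of 13 measured genes of collagen synthesis and folding, 2 were lower and 0 higher in ♂M-3 than in ZM-1, near the 15.9% of all genes that passed there. Plod1, a lysyl hydroxylase of collagens, averaged 640.4 ± 12.9 in ♂M-1 cells, 566 ± 2.40 in ♂M-3 cells and 920.0 ± 16.2 in ZM-1 cells. Relative to ZM-1 it was lower by 1.44-fold in ♂M-1 (adjusted p = 0.00500; 0.0584 without ♂M-1 replicate 2) and by 1.62-fold in ♂M-3 (adjusted p = 4.03e-04). Lox, which crosslinks fibrillar collagens, was 1.38-fold lower in ♂M-3 (adjusted p = 0.00808; 0.0638 without ♂M-3 replicate 2) and higher in ♂M-1 than in ♂M-3 by a log2 difference of 0.76. P4ha3, a prolyl hydroxylase subunit, was at a higher level in ♂M-1 (log2 difference 0.75, adjusted p = 0.00501 against ZM-1; 0.48, adjusted p = 0.0296 against ♂M-3). The second call was lost without 3 of the 6 arrays (up to 0.181). Serpinh1, the collagen chaperone, did not pass against ZM-1 in ♂M-3 (338 ± 21.1 in ♂M-3 against 358 ± 10.3 in ZM-1, adjusted p = 0.562). None of the 6 measured genes of α-dystroglycan glycosylation passed in any comparison by limma, with 2 at an unadjusted p below 0.05 in ♂M-3 against ZM-1 and 0 in the others.

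Of 12 matrix proteases, inhibitors and heparan sulfate enzymes, 2 were higher and 5 lower in ♂M-3 than in ZM-1. Mmp2, a gelatinase that cleaves type IV collagen, averaged 333 ± 20.2 in ♂M-1 cells, 207 ± 0.318 in ♂M-3 cells and 456 ± 19.1 in ZM-1 cells, and was 2.19-fold lower in ♂M-3 than in ZM-1 (adjusted p = 5.13e-05). Bmp1, a protease that processes procollagens and laminin chains, was 1.60-fold lower (adjusted p = 7.06e-04). Sulf1, which removes sulfate from heparan sulfate, averaged 474 ± 37.4 in ♂M-1 cells, 499 ± 12.9 in ♂M-3 cells and 227 ± 23.6 in ZM-1 cells. It was higher than in ZM-1 in both ♂M lines, by log2 differences of 1.06 in ♂M-1 and 1.14 in ♂M-3. Heparanase (Hpse) was lower than in ZM-1 in both, by −0.60 in ♂M-1 and −0.50 in ♂M-3. The first call was lost without any 1 of 3 of the 6 arrays, and the second without either of 2. With 1 array left out, the log2 differences ran from −0.74 to −0.45 in ♂M-1 and from −0.64 to −0.35 in ♂M-3. In ♂M-1 against ZM-1, 3 were higher and 2 lower. Mmp14, which activates the Mmp2 protein, and the inhibitor Timp2 were higher (0.50 and 0.72), both lost without ♂M-1 replicate 2 (adjusted p = 0.0885 and 0.125). Compared with ♂M-3, ♂M-1 had 6 higher and 0 lower genes, among them Mmp2, Bmp1, Timp2 and Timp3, with log2 differences of 0.68, 0.55, 0.70 and 0.68. Timp2 and Timp3 lost that call without ♂M-1 replicate 2 or either ♂M-3 array (up to 0.116 and 0.106). With 1 array left out the counts ranged from 3 to 6 of 12 in ♂M-3 against ZM-1, from 1 to 5 in ♂M-1 against ZM-1 and from 2 to 6 in ♂M-1 against ♂M-3.

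Of the 16 fibroblast genes, 11 were lower and 1 higher in ♂M-3 than in ZM-1, and their summed intensity was 11220 and 10774 in ♂M-3 against 12499 and 12305 in ZM-1. Dcn, Col6a3, Twist2 and Prrx1 were 5.44-fold, 2.10-fold, 2.23-fold and 1.65-fold lower. With 1 array left out, 7 to 10 of the 16 were lower. In ♂M-1 against ♂M-3, 11 of the 16 were higher and 0 lower (6 to 11 higher with 1 array left out), with sums of 13389 and 13415 in ♂M-1. In ♂M-1 against ZM-1, 2 were higher and 3 lower. The lower Lama5, Lamb1, Col4a1, Col4a2 and Sparc of ♂M-3 stand beside these values.

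Of 19 primitive endoderm markers, 3 were lower and 0 higher in ♂M-3 than in ZM-1, near the 15.9% of all genes that passed there (8.66% higher, 7.2% lower). The 3 were Fst, Pdgfra and Plat, each lost without at least 2 of the 6 arrays (adjusted p up to 0.0624, 0.116 and 0.144). The summed intensity of the 19 was 1305 and 1424 in ♂M-3, against 1577 and 1578 in ZM-1. Only 3 of the 19 lay above the median of all genes in mean intensity, so most gave a low signal at which a change could go unseen. The endoderm transcription factors did not pass in ♂M-3 against ZM-1. Gata4 averaged 93.3 ± 1.98 in ♂M-3 and 89.3 ± 2.46 in ZM-1. Gata6 averaged 100.3 ± 1.71 in ♂M-3 against 112 ± 2.43 in ZM-1 cells. In ♂M-1 against ♂M-3, 3 of the 19 markers were higher and 2 lower, where 6.54% of all genes passed. Dab2, Fst and Plat were higher there and Srgn lower, each call lost without at least 2 of the 6 arrays. In ♂M-1 against ZM-1, 0 were higher and 1 lower, where 4.41% of all genes passed. Endothelial and trophectoderm markers had 1 of 6 lower (Tek) and 1 of 8 each way (Tfap2c higher, Krt18 lower) in ♂M-3 against ZM-1. Among the 8 stem cell markers, 3 were higher in ♂M-3 than in ZM-1, with Zfp42 at 671 ± 3.77 in ♂M-3 against 272 ± 12.0 in ZM-1 (adjusted p = 2.40e-05), and Nanog and Tfcp2l1 lost without any 1 of the 4 arrays of these lines (up to 0.161 and 0.111).

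**Figure D4:**
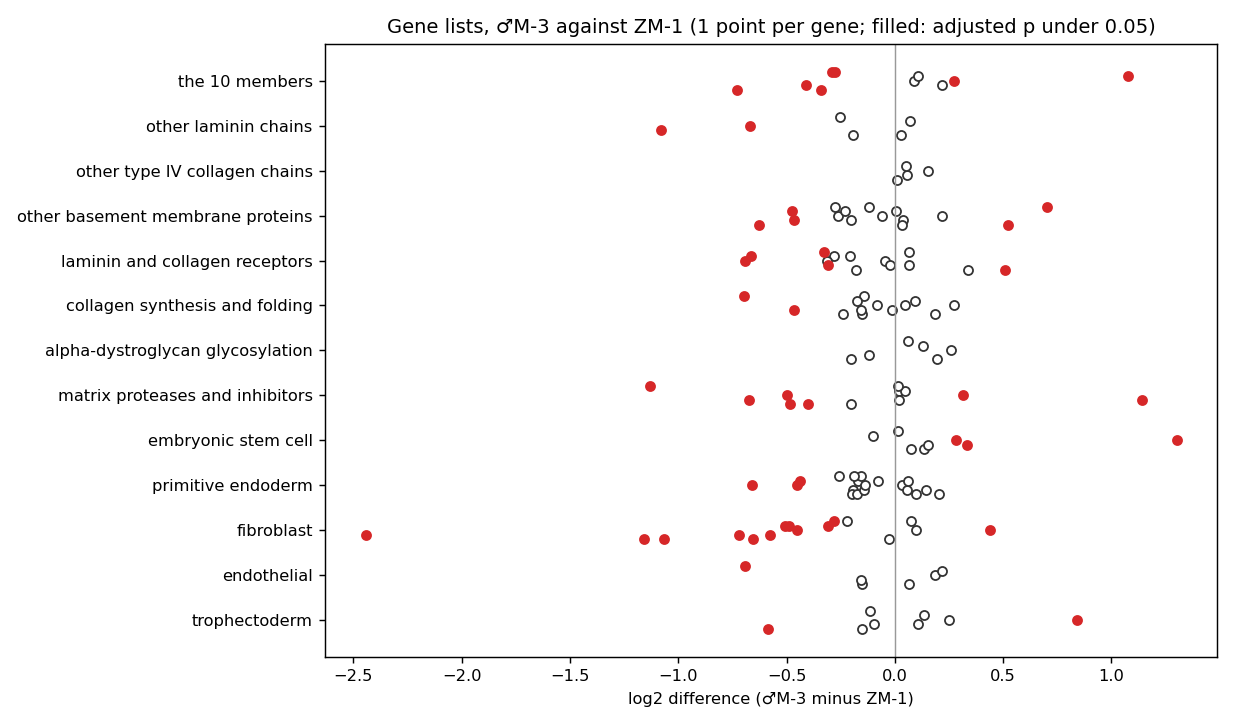
Log2 difference in ♂M-3 against ZM-1 (x axis) of every measured gene of 13 gene groups (rows), 1 point per gene; filled points passed an adjusted p of 0.05. The 10 basement membrane genes have filled points on both sides of 0, and the fibroblast row has 11 filled points below 0 and 1 above.

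The genes most like the laminin and collagen members were found by the smallest root mean square difference of centred log2 values over the 6 arrays, among 9630 genes whose mean lay above the median of all genes, after the 10 genes themselves, predicted genes, olfactory receptors and small RNAs were left out. For Lama1 these were Gss, glutathione synthetase (0.088), Hesx1, a homeobox repressor of the early embryo (0.090), and Nnt, the mitochondrial transhydrogenase (0.095). Gss measured 244 and 232 in ♂M-1, 495 and 483 in ♂M-3, and 248 and 257 in ZM-1. For Lamb1 they were the protease Bmp1 (0.050), Igfbp7, a secreted growth factor binding protein (0.056), and Fstl3, an activin-binding protein (0.057). Igfbp7 measured 1829 and 1888 in ♂M-1, 1176 and 1221 in ♂M-3, and 2117 and 2038 in ZM-1. For Col4a1 they were Gnptg, a subunit of the lysosomal enzyme tagging complex (0.034), the ephrin receptor Epha2 (0.034), and the fibrillar collagen gene Col5a1 (0.035). With 6 arrays in 3 lines, many genes share such an order, and the likeness is a description only.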

How the data were processed

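Total RNA of 6 samples was labelled with a whole-transcript terminal labelling kit and hybridised to Affymetrix arrays, per the labels' protocols. The deposited values are linear intensity values, 1 per probe set and array; GCOS 1.4 is named by the submitters' processing notes, and for background correction, summarisation and normalization the method is not given in the sources used here. The 35556 probe sets were used without further normalization, and the number of arrays, not depth, limits the precision. Of them, 21789 carried 1 symbol in the platform annotation, 1621 several and 12146 none. Where a gene had several probe sets, the one of highest average intensity stood for it (19938 genes).

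Log2 of the intensity plus 1 was fitted with 1 mean per line by limma 3.58.1 in R 4.3.3 (3 residual and 6.01 prior degrees of freedom), two-sided, with Benjamini-Hochberg adjustment over all genes and a threshold of 0.05. Fold changes are on this scale and understate changes of low genes. Intervals are 95%. The fit was tested on simulated data. What the p-values weigh is the spread of repeats within a line, which may be technical.

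All 10 genes were named; of the other lists, up to 4 genes past the test with the largest differences, and the 3 genes most like Lama1, Lamb1 and Col4a1. A few further list genes were named after their values were seen. Lists covered other laminin chains, other type IV collagen chains, other basement membrane proteins, receptors, collagen synthesis, α-dystroglycan glycosylation, matrix proteases, and stem cell, primitive endoderm, fibroblast, endothelial and trophectoderm markers. Genes and lists were chosen with earlier results of these data known. Alternatives changed the pseudocount, scaling, low-value filter, probe set rule, arrays fitted, variance prior, repeat block and each array left out.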

Additional observations from a re-analysis of the deposited data

Results flagged for a closer look

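For 7 of the 10 genes, the difference from ZM-1 was unequal in the ♂M lines by the direct test of ♂M-1 against ♂M-3, which 6.54% of all genes passed. These are the same 7 calls given above for that comparison. The log2 difference of ♂M-1 minus ♂M-3 was −1.05 for Lama1, −0.51 for Lamc1, −0.29 for Nid1, 0.35 for Lama5, 0.40 for Col4a1, 0.47 for Col4a2 and 0.55 for Lamb1. For 5 of them, Lama5, Lamc1, Col4a1, Col4a2 and Nid1, the fitted differences of the ♂M lines from ZM-1 had opposite signs. None of the 5 passed against ZM-1 in ♂M-1, and Lamc1 and Nid1 did not pass in ♂M-3 either. In ♂M-1 against ZM-1, Lama5, Col4a1 and Col4a2 differed by 0.060, 0.057 and 0.056, with intervals that spanned both signs. The share of all genes with opposite signs was not counted. For the 5 genes the direct test showed a difference between ♂M-1 and ♂M-3, not opposite changes from ZM-1. Only Lama1 and Lamb1 passed this direct test with each array left out; the other calls were lost without 3 to 6 of the 6 arrays.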

How the results depend on the processing

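Lama1 and Lamb1 kept their direction and their side of the threshold in ♂M-3 against ZM-1 and in ♂M-1 against ♂M-3 under all alternatives run. In ♂M-1 against ZM-1, where 0 of the 10 genes passed, 1 passed with a pseudocount of 16, 1 after median centring, 1 among genes above the 25th percentile, 2 above the 50th percentile and 3 with an intensity trend in the variance prior; each of these sets held Hspg2. With 1 array left out, the 10 genes had 0 calls in ♂M-1 against ZM-1, 2 to 5 in ♂M-3 against ZM-1 and 2 to 6 in ♂M-1 against ♂M-3. Over all genes, 880, 3162 and 1303 passed in these comparisons, with ranges of 234 to 631, 1302 to 2750 and 357 to 1495 when 1 array was left out, and 1632 in ♂M-1 against ZM-1 with the intensity trend. After median centring, 62.0% of the calls in ♂M-1 against ZM-1 were higher, against 42.7% before, and 70.9% against 54.6% in ♂M-3 against ZM-1.

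Differences near 0 changed sign: in ♂M-1 against ZM-1, Lama1 ranged from −0.11 to 0.17 and Col4a2 from −0.053 to 0.17 with 1 array left out, and Lama1 was −0.0045 without ZM-1 replicate 2; Sparc was 0.019 after median centring. In ♂M-1 against ♂M-3, Nid2 ranged from −0.11 to 0.0084 and Hspg2 from −0.0041 to 0.074. The cause was not tested. Whether the repeat numbers of the labels pair the arrays is not known. Deviations of same-numbered repeats correlated at 0.067 for ♂M-1 and ZM-1, −0.10 for ♂M-3 and ZM-1 and −0.035 for ♂M-1 and ♂M-3. These values show no clear shared shift but cannot tell how the arrays were handled. With the repeat number as a replicate block, 0, 6 and 6 of the 10 genes and 686, 2769 and 1071 of all genes passed, and Hspg2 (♂M-3 against ZM-1, adjusted p = 0.0622) and Nid1 (♂M-1 against ♂M-3, 0.0732) lost their calls. A crossed block for ♂M-3 and ZM-1 alone, chosen after seeing the data, gave 4 of the 10 genes and 3034 of all genes.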
